A study of Mus musculus with 11 samples.

Results

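Among the 11 RNA libraries of sorted dorsal skin cells, the 6 libraries of CD49f+CD34+ cells without SCA-1, a gate for hair follicle bulge stem cells, fell into a pair of groups of 3. Set A held the libraries labelled tdT+ replicate 1, tdT+ replicate 2 and tdTneg replicate 2. Set B held tdT+ replicate 3, tdTneg replicate 1 and tdTneg replicate 3. The sets were read from the first principal component of these same libraries, so every difference between them is a description and carries no test. The other 5 libraries, 3 tdT+ and 2 tdTneg of CD49f+CD34+SCA-1+ cells, were not used to choose the sets and serve as a reference.

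All libraries came from male C57Bl6/N mice with the genotype CD4Cre R26-tdT, per the labels, and each pooled the cells of 2 mice. Replicate 1 of every group was taken at 29 weeks of age, and replicates 2 and 3 at 32 weeks. Epidermal cells were freed with thermolysin and sorted by flow cytometry, and no further treatment separates the groups. The Cre recombinase is driven by Cd4 sequences, so the tdT reporter marks cells that expressed Cd4 or descend from such cells, and cells sorted as tdTneg are the comparison. The labels therefore give no condition that separates set A from set B: each set holds both tdT states and both ages.

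The libraries of set A went against their labels in 2 respects. First, their leading genes were transcripts of the liver and not of skin, so the grouping is not described here as a pair of states of bulge cells. Second, *Xist*, the long RNA made from the inactive X chromosome of female cells, stood at 418, 1317 and 211 CPM in set A although the mice are labelled male. In set B it stood at 1.27, 1.05 and 1.19 CPM. CPM are counts scaled by TMM to a common library size. Throughout, values of set A are given in the order tdT+ replicate 1, tdT+ replicate 2, tdTneg replicate 2, and those of set B in the order tdT+ replicate 3, tdTneg replicate 1, tdTneg replicate 3.

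The bulge is the niche in the outer root sheath where quiescent hair follicle stem cells reside, and it is known for CD34, keratin 15 and the transcription factors SOX9, LHX2 and NFATC1. Hepatocytes, the parenchymal cells of the liver, secrete albumin, apolipoproteins, fibrinogen and most acute phase proteins into the blood, under transcription factors such as HNF4A. Kupffer cells are the resident macrophages of the liver, and its sinusoids are lined by a specialised endothelium that carries scavenger receptors.

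The first component took up 59.6% of the variance among the 6 libraries, over 20307 genes that passed a filter on low counts. Its scores were 141, 104 and 92.0 in set A and -127, -98.2 and -111 in set B. The gap of 190.2 between the sets was wider than the spread within set A (49.2) or within set B (28.9). Principal component 2, with 16.4% of the variance, put tdT+ replicate 3 of set B at 112.9 and every other library at 32.2 or below. Principal component 3, with 11.6% of the variance, put tdT+ replicate 2 at 100.2 and every other library at 7.55 or below. On the first component the 3 tdT+ libraries had a mean score of 39.2 with an SD of 145, and the 3 tdTneg libraries one of -39.2 with an SD of 114. An exact permutation test of 3 against 3 libraries cannot go below 0.1, so nothing is read from it here.

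**Figure D1:**
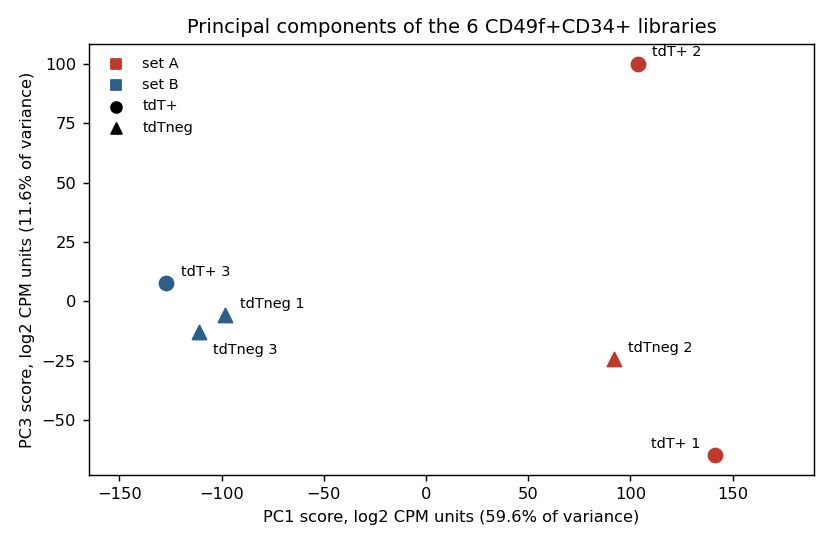
Scores of the 6 CD49f+CD34+ libraries on the first principal component (x axis) and on principal component 3 (y axis) of log2 CPM, coloured by set, with circles for tdT+ and triangles for tdTneg. The sets lie apart along the x axis, from 92.0 upwards and from -98.2 downwards, and tdT+ replicate 2 stands alone at 100.2 on the y axis. Principal component 2, on which tdT+ replicate 3 stands alone at 112.9, is not shown.

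Of the 20307 genes, 2484 were higher in set A by a mean log2 difference over 1 with no overlap of the 3 and 3 libraries, which is 12.2% of all genes. With at least 10 counts in every library it was 696 of 13767 genes (5.06%). In set B 183 (0.901%) were higher, a count that moved with the settings: it was 50 with at least 10 counts in every library and 252 to 434 when 1 library was left out, highest without tdTneg replicate 2. As the sets were chosen from these values, nothing is read from the counts themselves. Just inside the fold threshold lay *Ppa1* with a mean of 52.1 CPM in set A and 24.6 CPM in set B, and just outside it *Gda* with 46.4 and 23.9 CPM. The median log2 difference over all genes was -0.01, and the difference was nearly unrelated to transcript length (Spearman rho -0.05 across 20299 genes) and GC content (-0.02). These are correlations across genes, which are not replicates.

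Most of the 2484 genes were at low levels. The 614 with a log2 difference from 1 to 2 had a median of 3.72 CPM in set A, and the 1516 with a difference from 2 to 6 had a median of 2.59 CPM. The 354 genes with a difference over 6 were abundant in set A, with a median of 39.3 CPM, against 0.149 CPM in set B and 0.193 CPM in the SCA-1+ libraries. Of these 354 genes, 317 were highest in tdT+ replicate 1, 26 in tdTneg replicate 2 and 11 in tdT+ replicate 2.

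Among the separate lists of liver genes, that of plasma carriers and apolipoproteins had the highest summed level, with 33074, 15746.5 and 18664 CPM in set A. *Alb* (ENSMUSG00000029368, chromosome 5, 90460897 to 90476602 of GRCm38), the main protein of plasma, had 9554, 4389 and 6092 CPM in set A and 37.2, 3.03 and 4.996 CPM in set B. *Apob*, the structural protein of very low density lipoprotein, had 5073, 2349 and 2231 CPM in set A and 14.5, 1.44 and 2.02 CPM in set B. *Hp*, the haemoglobin scavenger haptoglobin, had 4587, 2173 and 2359 CPM in set A and 14.5, 1.34 and 1.85 CPM in set B. For each of these genes all 3 set A libraries stood far above all 3 set B libraries, and the 5 SCA-1+ libraries held between 6.15 and 18.6 CPM of *Alb*. All 22 genes of the list of plasma carriers and apolipoproteins were called higher in set A, beside 12.2% of all genes, with a median log2 difference of 9.07 beside -0.01.

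Genes of clotting, complement and the acute phase were called higher in set A as well. *Kng1*, the kininogen precursor of bradykinin, had the largest log2 difference of all 20307 genes, 9.91, from 660.5, 349 and 372 CPM in set A and 2.53, 0.124 and 0.122 CPM in set B. *Fgb*, the beta chain of fibrinogen, had 2746, 1303 and 1415 CPM in set A and 9.25, 0.702 and 1.15 CPM in set B. *Saa1*, the serum amyloid that rises in inflammation, had 1686, 939.97 and 817 CPM in set A and 4.404, 0.433 and 0.755 CPM in set B. The highest set B library was tdT+ replicate 3 for every one of these genes, and set A and set B did not overlap. All 22 coagulation genes, 19 complement and lectin genes, 14 acute phase genes and 14 protease inhibitors that passed the filter were called in set A, beside 12.2% of all genes. Their median log2 differences were 8.46, 6.92, 8.75 and 9.11. These lists were written after values were seen, and genes expressed in 1 set only passed the filter through that set, so the counts describe the lists and support nothing.

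Enzymes of the hepatocyte followed. *Cyp2e1*, an ethanol-oxidising cytochrome P450, had 1111, 569 and 594 CPM in set A and 3.85, 0.413 and 0.244 CPM in set B. *Mat1a*, the liver form of methionine adenosyltransferase, had 1713, 837 and 957 CPM in set A and 5.39, 0.599 and 0.829 CPM in set B. All 27 genes of liver metabolism and all 26 of drug and lipid oxidation were called, beside 12.2% of all genes, with median log2 differences of 7.72 in each list.

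Transcription factors of the liver were higher in set A as well. *Hnf4a*, a nuclear receptor that maintains hepatocyte identity, had 245, 125 and 193 CPM in set A and 0.881, 0.144 and 0.0975 CPM in set B. *Foxa3*, a forkhead factor of gut-derived tissues, had 33.1, 7.54 and 15.3 CPM in set A and 0.05505, 0.0206 and 0.0244 CPM in set B. *Nr1i2*, the xenobiotic receptor PXR, had 12.8, 23.97 and 16.7 CPM in set A and 0.05505, 0 and 0.0244 CPM in set B. Of 16 such factors that passed the filter, 15 were called in set A (median log2 difference 6.48), beside 12.2% of all genes. The exception was *Cebpa*, which skin also expresses, with 170.5, 133 and 211 CPM in set A and 135, 138 and 131 CPM in set B and overlapping sets.

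**Figure D2:**
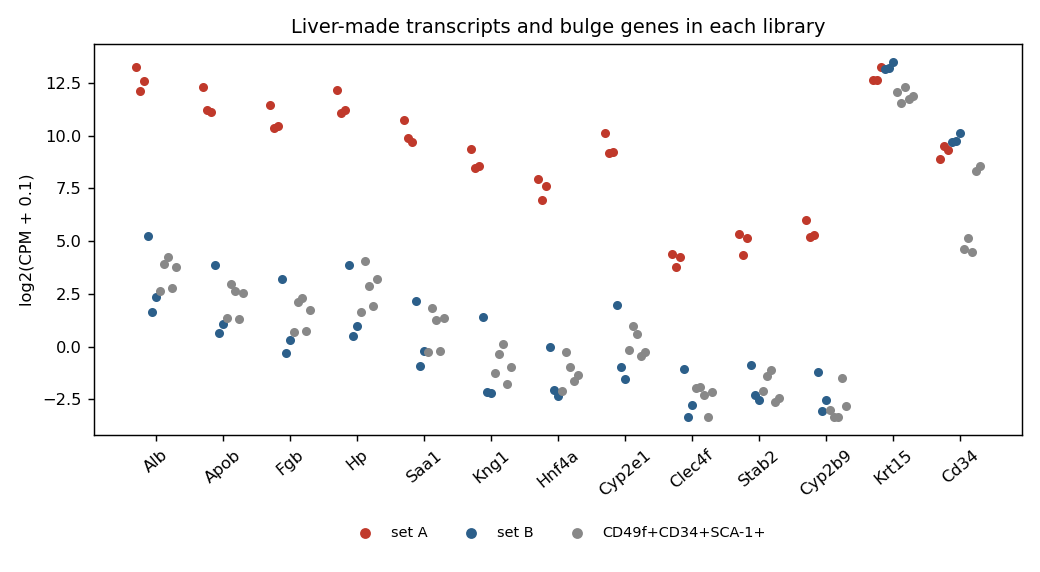
log2(CPM + 0.1) of liver-made genes, Kupffer and sinusoidal genes and the bulge genes Krt15 and Cd34 (x axis), with 1 point per library coloured by set. For the liver genes the 3 set A libraries stand above all 8 others, while Krt15 and Cd34 are at 467 CPM or more in all 6 CD49f+CD34+ libraries. Cd34 is lower in set A without overlap (log2 difference -0.63).

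The proportions between the 3 libraries were taken list by list. Over the 91 secreted plasma proteins called in set A, the median ratio of tdT+ replicate 2 to tdT+ replicate 1 was 0.474 (quartiles 0.444 and 0.531). The median ratio of tdTneg replicate 2 to tdT+ replicate 1 was 0.541 (quartiles 0.467 and 0.633). tdT+ replicate 1 was the highest library for 87 of the 91. Over the 11 Kupffer cell genes the ratio of tdT+ replicate 2 to tdT+ replicate 1 was more spread, with a median of 0.648 (quartiles 0.585 and 1.67), and 5, 3 and 3 of them were highest in tdT+ replicate 1, tdT+ replicate 2 and tdTneg replicate 2. Together the genes for plasma proteins took 6.89%, 3.80% and 3.97% of all counts in set A and 0.0426%, 0.0177% and 0.0210% in set B. In the SCA-1+ libraries they took from 0.0278% to 0.0572%.

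Most listed genes of Kupffer cells and sinusoidal endothelium were also called higher in set A, and several are shared with skin cells. *Clec4f*, a lectin of mouse Kupffer cells, had 21.1, 13.7 and 18.7 CPM in set A and 0.385, 0 and 0.0487 CPM in set B. *Marco*, a scavenger receptor of tissue macrophages, had 27.03, 6.21 and 9.93 CPM in set A and 0, 0 and 0.0244 CPM in set B. *Stab2*, the hyaluronan receptor of sinusoidal endothelium, had 40.02, 20.1 and 35.5 CPM in set A and 0.4404, 0.103 and 0.0731 CPM in set B. All 11 Kupffer genes and 7 of 9 sinusoidal genes were called in set A, beside 12.2% of all genes, with medians of 6.16 and 2.91. The list sums were not particular to set A. The Kupffer sum was 201, 206 and 149 CPM in set A, against 14.3 to 311 CPM in the SCA-1+ libraries. The sinusoidal sum was 175, 184 and 190 CPM in set A, against 28.7 to 432 CPM there, with both tdTneg SCA-1+ libraries above set A. Macrophage genes shared with skin, such as *C1qa*, were also present in the SCA-1+ libraries, at up to 84.2 CPM, while *Clec4f* was at most 0.1702 CPM there.

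Markers of 7 other organs, 44 genes in all, were at low levels in both sets. Of these genes 13 passed the filter, and 3 were called higher in set A, beside 12.2% of all genes. The summed level of the 44 genes was 24.6, 20.8 and 17.9 CPM in set A and 21.9, 16.5 and 13.3 CPM in set B. The SCA-1+ libraries held between 8.68 and 13.8 CPM. The 2 sets overlapped on this sum, unlike on the liver lists.

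Genes with a sex bias in mouse liver were examined by direction. *Cyp2b9*, a cytochrome P450 higher in female liver, had 63.2, 36.4 and 39.5 CPM in set A and 0.3303, 0.0206 and 0.0731 CPM in set B. *Sult3a1*, a female-biased sulfotransferase, had 13.9, 5.297 and 7.68 CPM in set A and 0, 0 and 0 CPM in set B. All 8 female-biased genes that passed the filter were called higher in set A (median 5.98), beside 12.2% of all genes. Among male-biased genes, *Hsd3b5* was at 0, 0 and 0.0528 CPM in set A and 0, 0 and 0 CPM in set B and *Cyp4a12a* at 0.136, 0 and 0 CPM in set A and 0, 0 and 0 CPM in set B. *Mup20*, a male urinary protein, had 1.63, 0.0535 and 2.09 CPM in set A and 0, 0.0206 and 0.0244 CPM in set B. *Cyp2d9* and *Slco1a1*, also male-biased, were called in set A at up to 7.198 and 2.26 CPM. Of the 9 male-biased genes listed, 4 did not pass the filter and 4 were called higher in set A, beside the same share of all genes, and *Moxd1*, which the bulge itself expresses, had a log2 difference of -0.54.

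*Xist* (chromosome X, 103460366 to 103483254 of GRCm38) was higher, and the Y-linked genes were lower, in set A. *Xist* was highest in tdT+ replicate 2 at 1317 CPM, against 418 CPM in tdT+ replicate 1 and 211 CPM in tdTneg replicate 2. In the 8 other libraries of the series it was between 0.399 and 1.27 CPM. *Ddx3y*, a Y-linked RNA helicase made in male cells of all tissues, had 81.2, 39.4 and 61.4 CPM in set A and 125, 126 and 128 CPM in set B. The sum over the 4 Y-linked genes *Ddx3y*, *Eif2s3y*, *Kdm5d* and *Uty* was 74.9%, 29.6% and 55.1% of the set B mean (308 ± 21.5 CPM, SD, n = 3) in the 3 set A libraries. The library with the least Y-linked RNA was thus the one with the most *Xist*. It was not the one with the most liver RNA: *Xist* in tdT+ replicate 2 was 3.15 times that of tdT+ replicate 1, while its liver plasma proteins were at 0.475 times. *Tsix*, the antisense partner of *Xist*, had 0.0453, 0.803 and 0.475 CPM in set A and 1.32, 0.6399 and 0.609 CPM in set B, and the strand setting of the counting is not given in the sources used here.

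**Figure D3:**
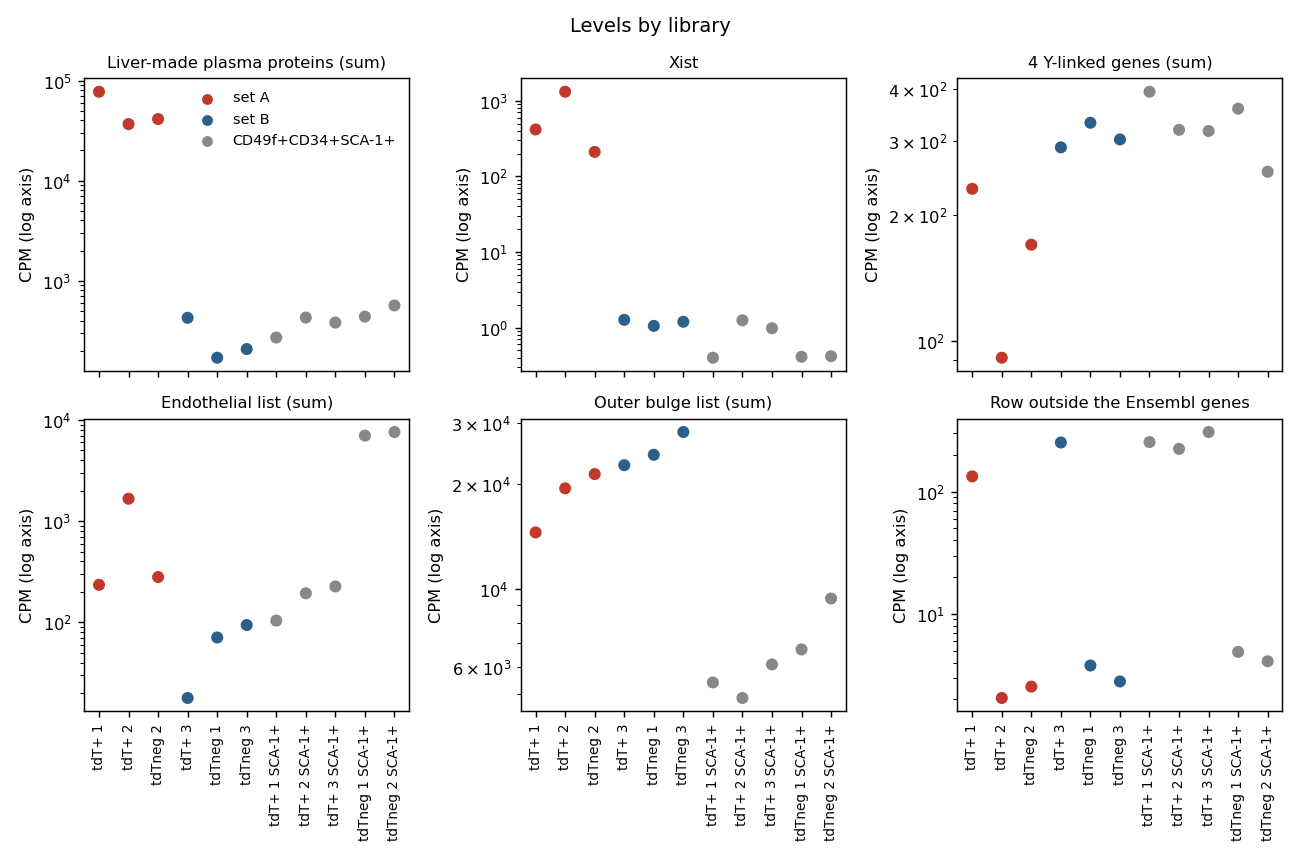
Levels in each of the 11 libraries (x axis) on log axes of CPM, coloured by set, for the summed liver-made plasma proteins, Xist, the 4 Y-linked genes, the endothelial and outer bulge lists and the row outside the Ensembl genes. The order of the 3 set A libraries differs between panels: tdT+ 1 is highest for plasma proteins, and tdT+ 2 is highest for Xist and endothelial genes and lowest for Y-linked genes.

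Each file held 1 row outside the Ensembl genes, whose identity is not described in the sources used here, and it was kept out of totals and tests. In CPM without TMM scaling it was at 133 (95% Wilson interval 129 to 138) in tdT+ replicate 1 and 252 (245 to 259.8) in tdT+ replicate 3. In tdT+ replicate 2 it was at 2.05 (1.49 to 2.83). The 3 tdTneg CD49f+CD34+ libraries held between 2.54 and 3.78 CPM, and the 3 tdT+ SCA-1+ libraries between 224 and 307. The library labelled tdT+ replicate 2 was thus at the level of the tdTneg libraries. The intervals cover counting error only.

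Part of the genes of endothelium and of Langerhans cells and MHC class II were called higher in set A, and most of those called were highest in tdT+ replicate 2. In bulk libraries, more cells of a type and more RNA per cell cannot be told apart. The summed endothelial list had 234, 1664 and 279.9 CPM in set A and 17.8, 70.7 and 93.9 CPM in set B. *Vwf*, von Willebrand factor, had 4.07, 432 and 18.03 CPM in set A and 4.29, 1.55 and 12.5 CPM in set B, so that 1 library carried the difference and the sets overlapped. *Ptprb*, a phosphatase of vascular endothelium, had 45.2, 151 and 51.4 CPM in set A and 1.21, 1.16 and 3.29 CPM in set B. Of 22 endothelial genes, 13 were called in set A (median log2 difference 2.90), beside 12.2% of all genes, and 12 of the 13 were highest in tdT+ replicate 2. Without that library 13 were called, beside 15.2% of all genes, with a median of 2.27. The 2 tdTneg SCA-1+ libraries held still more endothelial RNA, up to 7603 CPM in the sum.

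*Lyz2*, the lysozyme of myeloid cells, had 35.2, 167 and 20.6 CPM in set A and 1.27, 1.84 and 0.366 CPM in set B, and *Csf1r*, the macrophage growth factor receptor, had 33.3, 69.2 and 31.6 CPM in set A and 0.275, 1.22 and 0.439 CPM in set B. Of 16 genes of Langerhans cells and MHC class II, 9 were called in set A (median 2.34), beside 12.2% of all genes. Without tdT+ replicate 2 the count was also 9, beside 15.2% of all genes. *Cd207*, the langerin of Langerhans cells, had 0.181, 9.04 and 0.951 CPM in set A and 1.596, 1.49 and 0.926 CPM in set B. Among 24 T cell genes none was called in either direction (median 0.57). Without tdT+ replicate 2 the median was 0.23 with 1 called in set A, beside the same 15.2% of all genes. *Ptprc*, the common leukocyte antigen CD45, had 51.9, 41.5 and 19.5 CPM in set A and 27.2, 2.56 and 1.61 CPM in set B. Of 4 B cell and immunoglobulin genes that passed the filter all 4 were called in set A, again beside 12.2% of all genes, at levels of at most 12.1 CPM (*Ighm*).

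Of 34 interferon response genes, 16 were called in set A and none in set B (median 1.43), beside 12.2% and 0.901% of all genes. *Bst2*, the antiviral protein tetherin, had 36.7, 22.8 and 22.7 CPM in set A and 1.32, 6.42 and 5.99 CPM in set B, and *Ifit2* had 6.61, 4.28 and 4.51 CPM in set A and 0, 1.05 and 1.41 CPM in set B. In the SCA-1+ libraries *Bst2* ranged from 16.9 to 41.3 CPM, which overlapped set A and not set B.

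The lists of Merkel cells, sebaceous gland, fibroblasts and pericytes held between 3 and 6 called genes each, beside 12.2% of all genes. All 3 Merkel cell genes that passed the filter were called in set A, among them *Krt18*, a keratin of simple epithelia, with 97.4, 44.4 and 50.5 CPM in set A and 0.716, 0.743 and 0.268 CPM in set B. The defining Merkel genes were absent or nearly so: *Atoh1* had no count in any library, and *Krt20* had 0.317, 0 and 0.0264 CPM in set A and 0, 0.0206 and 0.0487 CPM in set B. In the sebaceous gland list the 4 called of 20 genes were the lipid and detoxification enzymes *Scd1*, *Mgst1*, *Dgat2* and *Cyp2e1*, while *Awat2*, the wax synthase of sebocytes, had 2.63, 3.16 and 2.35 CPM in set A and 0.05505, 2.52 and 2.53 CPM in set B and overlapping sets. Of 22 genes of the cholesterol synthesis list 4 were called in set A (median 0.27), not far from the share over all genes. *Cyp1a2*, a dioxin-inducible P450 of hepatocytes, had 50.1, 30.3 and 49.3 CPM in set A and 0.165, 0 and 0.0487 CPM in set B. The other members of its aryl hydrocarbon receptor list included *Ahrr*, called in set A at 1.55, and 7 that were not called. Fibroblast genes were called in 6 of 14 cases (median 1.60), with *Dcn*, a dermal proteoglycan, at 57.1, 19.6 and 30.9 CPM in set A and 1.93, 3.14 and 14.8 CPM in set B. Of 10 pericyte and smooth muscle genes 3 were called. Without tdT+ replicate 2 it was 6, beside 15.2% of all genes. *Rgs5*, a pericyte gene, had 21.96, 3.16 and 7.34 CPM in set A and 0, 0.103 and 0 CPM in set B. The part of each of these cell types in the difference between the sets was not tested.

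**Figure D4:**
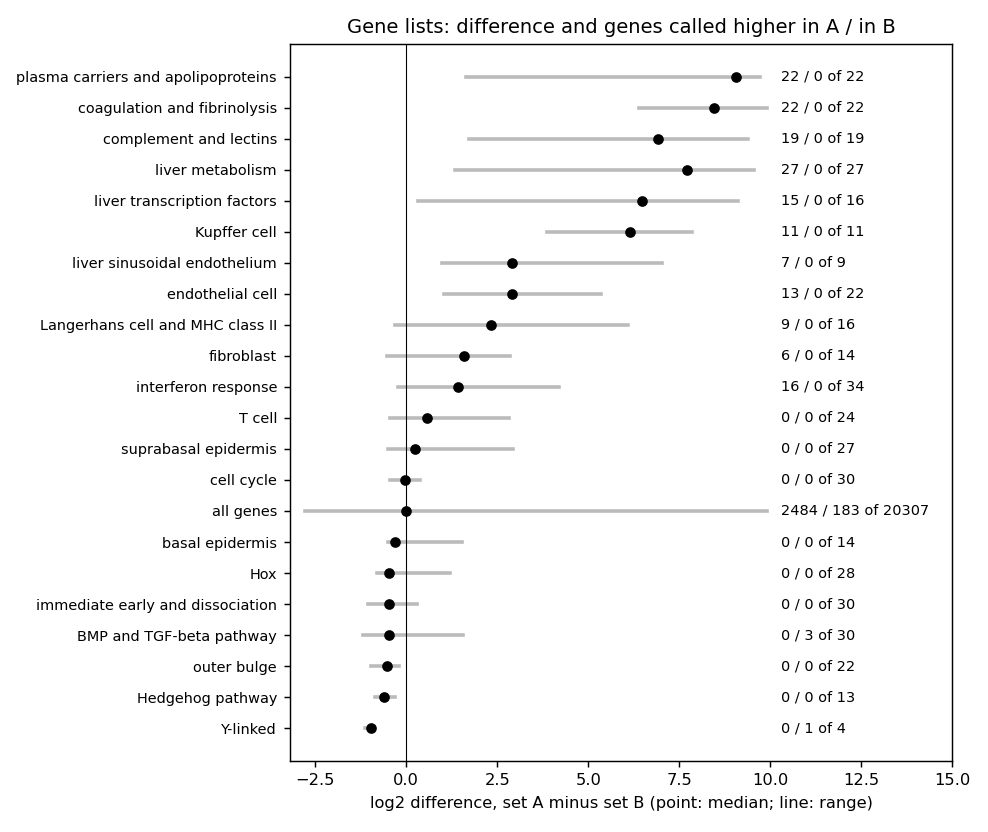
Log2 difference between set A and set B for gene lists (y axis), with a point at the median and a line over the range of the genes that passed the filter. Numbers at the right give genes called higher in A and in B, and the liver lists stand apart from the median of all genes at -0.01, while lists of bulge, Hedgehog and Y-linked genes lie below 0.

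Bulge identity was present in all 6 libraries. *Krt15*, the keratin of bulge cells, had 6267, 6305 and 9858 CPM in set A and 9207, 9270.1 and 11542 CPM in set B. *Cd34*, the sort marker, had 467, 735 and 638 CPM in set A and 841, 863 and 1129 CPM in set B, while the SCA-1+ libraries held from 22.3 to 382 CPM. *Itga6*, which encodes the sorted integrin CD49f, had 386, 547 and 511 CPM in set A and 565, 614 and 547 CPM in set B. *Ly6a*, which encodes SCA-1, had 27.6, 59.2 and 2.46 CPM in set A and 9.63, 5.74 and 2.900 CPM in set B, all below the lowest of the SCA-1+ libraries at 153 CPM, and *Cd4* was at or below 1.21 CPM in each of the 6.

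No outer bulge gene passed the call, beside 12.2% of all genes called in set A and 0.901% in set B. All 22 had log2 differences below 0, from -0.98 to -0.20 (median -0.52), and all 22 stayed below 0 with RLE scaling (median -0.46). Over all genes 10289 of 20307 were below 0. Other lists lay mostly below 0 as well: all 32 splicing factor genes and 12 of 14 basal epidermis genes. Of 27 suprabasal epidermis genes, 19 were above 0. *Sox9* had 442, 364 and 551 CPM in set A and 833, 667 and 729.6 CPM in set B without overlap, a property of 26.8% of all genes. *Lgr5*, a receptor of follicle stem cells, had 172, 101 and 217 CPM in set A and 204, 359 and 386 CPM in set B. The summed outer bulge list was 58.0%, 77.7% and 85.3% of the set B mean in the 3 set A libraries, lowest in tdT+ replicate 1, the library richest in liver RNA. That of basal epidermis was at 68.2%, 80.4% and 98.3%. All 13 Hedgehog pathway genes were below 0 too (median -0.61), beside 10289 of all 20307 genes. Their sum was lowest in tdT+ replicate 2, at 61.4%, 56.8% and 77.9% of the set B mean. *Gli1*, the transcriptional target and effector of the pathway, had 100.01, 100.2 and 119 CPM in set A and 207, 174 and 203 CPM in set B, and *Ptch1*, the Hedgehog receptor, had 106, 59.2 and 93.04 CPM in set A and 132, 122 and 158 CPM in set B. *Gas1*, a Hedgehog co-receptor, had 285, 207 and 422 CPM in set A and 487, 495 and 471 CPM in set B. In the SCA-1+ libraries *Gli1* was lower than in either set, at 8.09 to 62.7 CPM.

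Of 30 genes of the BMP and TGF-beta list 3 (*Nog*, *Id4* and *Tgfb3*) were called in set B, beside 0.901% of all genes, and none in set A. *Nog*, the secreted BMP antagonist noggin, had 16.3, 29.8 and 21.6 CPM in set A and 49.3, 44.5 and 55.7 CPM in set B. *Id4*, a helix-loop-helix protein induced by BMP, had 77.96, 32.96 and 101 CPM in set A and 107, 147 and 149 CPM in set B. *Tgfb3*, a TGF-beta ligand, had 36.99, 16.4 and 39.6 CPM in set A and 86.1, 43.99 and 55.5 CPM in set B. *Grem1*, another BMP antagonist, had 309, 389 and 346 CPM in set A and 754, 529 and 711 CPM in set B. Its log2 difference of -0.92 missed the fold threshold without overlap, and the sets did not overlap on 26.8% of all genes. Of the 30 genes, 27 were below 0 (median -0.48), beside 10289 of all 20307 genes.

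Outside the lists, the largest difference in favour of set B among genes at 10 CPM or more was that of *Myoc*, the secreted glycoprotein myocilin, with 11.6, 5.78 and 17.3 CPM in set A and 34.7, 35.3 and 39.4 CPM in set B. *Lrrn3*, a leucine-rich repeat membrane protein, had 23.04, 18.99 and 14.1 CPM in set A and 46.8, 31.6 and 52.8 CPM in set B. *Sorcs3*, a sorting receptor, had 17.9, 22.4 and 13.7 CPM in set A and 60.6, 27.1 and 34.8 CPM in set B, and *Lpar1*, a lysophosphatidic acid receptor, had 18.7, 11.8 and 20.2 CPM in set A and 47.5, 27.3 and 35.8 CPM in set B. The remaining genes of this rank were *Ogdhl*, *Pcdh20*, *St6galnac5*, *Crispld1*, *Gprasp2*, *Fam171b* and *Nrtn*, with log2 differences from -1.18 to -0.98. Among these genes the largest log2 difference was -1.78, and over all 183 genes it was -2.79, both smaller in size than the leading differences in favour of set A. Over all 183 genes called higher in set B, the median level was 0.891 CPM in set B and 0.301 CPM in set A, and only 14 had a mean of 10 CPM or more. In 76 of the 183 the SCA-1+ libraries averaged lower than set A.

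**Figure D5:**
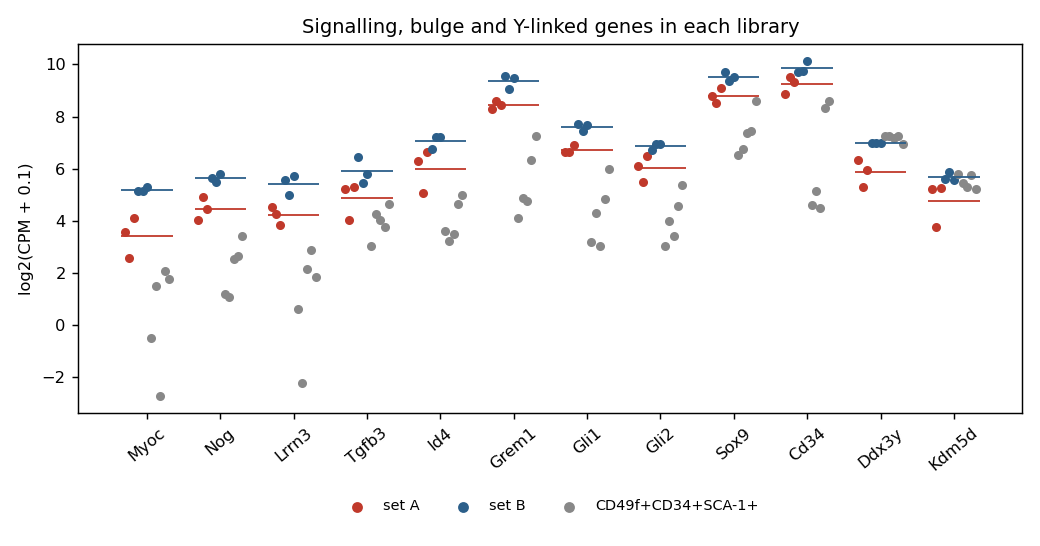
log2(CPM + 0.1) of signalling, bulge and Y-linked genes (x axis) with 1 point per library coloured by set and lines at the mean of set A and of set B. The mean of set A lies below that of set B for the genes shown, with log2 differences (A minus B) of -1.78 for Myoc, -0.87 for Gli1 and -0.63 for Cd34.

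Lists of proliferation and stress differed in their counts. Among 30 cell cycle genes none was called (median -0.03, and 0.04 with RLE scaling). None of 30 immediate early genes was called, though 26 were below 0 (median -0.47), nor was any of 14 heat shock genes (median -0.27). Of 28 Hox genes none was called and 23 were below 0 (median -0.46). Over all genes 12.2% were called in set A and 0.901% in set B, and 10289 of 20307 were below 0. Of 27 genes of stress keratins and wound response 5 were called in set A, beside 12.2% of all genes, and 23 were above 0 (median 1.08, and 0.52 without tdT+ replicate 2). They included *Cxcl1*, a neutrophil chemokine, with 45.9, 72.2 and 36.96 CPM in set A and 0.275, 7.37 and 4.85 CPM in set B, and *S100a8* at no more than 4.65 CPM. Of 16 genes of the integrated stress and unfolded protein response 3 were called in set A (median 0.21), not far from the 12.2% over all genes.

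Measures of count quality followed the sets only in part. Totals were 24764941, 18042009 and 39364902 counts in set A and 18195195, 46542177 and 40709279 in set B, so depth did not divide them. Genes with 10 or more counts numbered 18560, 17320 and 20274 in set A and 15956, 18024 and 17108 in set B. After thinning every library to the smallest total they numbered 17532, 17320 and 17305 against 15929, 15480 and 15020, and the sets no longer overlapped. The 100 most abundant genes took 32.9%, 23.5% and 27.4% of counts in set A and 26.4%, 21.6% and 23.2% in set B, with overlap. Mitochondrial transcripts took 4.197%, 3.56% and 3.59% in set A and 2.57%, 2.78% and 3.70% in set B, again with overlap. lincRNAs took 3.05%, 1.57% and 1.88% in set A against 1.34%, 0.707% and 0.679% in set B, and the sets did not overlap. *Malat1*, a nuclear lincRNA, had 4156, 2924 and 2474 CPM in set A and 1477, 1459 and 911 CPM in set B. Ribosomal protein genes had no call among 79 (median -0.19), beside 12.2% of all genes called in set A and 0.901% in set B.

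The 5 SCA-1+ libraries, which the sets did not use, showed whether the set genes also vary elsewhere. Between tdT+ and tdTneg SCA-1+ cells, edgeR called 121 genes higher (0.696% of 17392) and 764 lower (4.39%) in tdT+ cells. Without tdTneg SCA-1+ replicate 2 it called 52 higher and 423 lower, and without tdT+ SCA-1+ replicate 3 it called 65 higher. Of the 2484 genes higher in set A, 1541 were tested there, of which 13 (0.844%) were called higher and 222 (14.4%) lower in tdT+ cells. Of the 183 genes higher in set B, 112 were tested, of which 0 were called higher and 2 (1.79%) lower. Of the 101 liver genes tested there, 1 was called higher and 8 lower, including *Stab1*, which vascular endothelium also expresses. In the endothelial list 20 of 21 tested genes were lower in tdT+ cells (median log2 fold change -5.23). So were 11 of 22 outer bulge genes (median -2.04) and 7 of 30 BMP and TGF-beta genes (median -0.58).

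In a fit of all 11 libraries, tdT+ against tdTneg CD49f+CD34+ cells gave 2 called genes of 20307 (0.00985%) in edgeR, and 1709 genes had an unadjusted p under 0.05. DESeq2 on the same comparison called 332. The 2 genes of edgeR were *Akna*, an AT-hook protein, and *Ly6d*, a surface antigen of the LY6 family. Fitted on the 6 CD49f+CD34+ libraries alone, edgeR called 0 of 17975 genes, with 1444 at an unadjusted p under 0.05. The library set was then added to that fit as a term. The sets were read from these same 6 libraries, so the term takes up their largest axis of variance by construction, and the values are given as a description with no p. With it the tdT effect on *Ly6d* was 2.23 on the log2 scale. That on *Akna* was 3.30. *Ly6d* was at 251 and 248 CPM in the tdT+ libraries of set A and at 318 CPM in that of set B, against 52.4 CPM in the tdTneg library of set A and 79.6 and 66.7 CPM in those of set B. Its level thus followed the tdT label within each set.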

How the data were processed

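RNA of sorted mouse skin cells was sequenced in 11 libraries. The authors deposited 1 table of raw read counts per gene and library, not normalised, for 55536 Ensembl genes (release 96). The submitters' processing notes name bcl2fastq 2.20.0.422, FastQC, STAR, featureCounts and DESeq2 1.18.1, and the mm10 genome. The strand setting of the counting is not given in the sources used here, so genes that overlap on opposite strands cannot be told apart, and near-identical gene copies are uncertain. Each table held 1 further row outside the Ensembl genes, which was left out of totals and tests.

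Counts were scaled by TMM in edgeR 4.0.16 (R 4.3.3) over the 11 libraries and filtered with filterByExpr on the 4 labelled groups, which kept 20307 genes. Values are CPM, or log2 CPM with a prior count of 2. Principal components were taken on gene-centred log2 CPM of the 6 CD49f+CD34+ libraries. A gene was called higher in a set when the mean log2 difference exceeded 1 and the 3 and 3 libraries did not overlap, with no test. tdT+ and tdTneg cells were compared with the quasi-likelihood test of edgeR (Benjamini-Hochberg adjusted p under 0.05, absolute log2 fold change over 1), in a fit of all 11 libraries for CD49f+CD34+ cells and of the 5 libraries for SCA-1+ cells. Nothing in the labels says that replicates share no mice or day, so p-values measure only the spread between these samples. The fits were also run on simulated data, and nothing is read from that run here. Other scalings, filters, prior counts, DESeq2 1.42.0, a replicate block and leaving out each library were run as alternatives.

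Named genes were members of 37 gene lists and 19 gene classes, the sort genes, and the 15 largest differences in each direction among genes with a mean of at least 10 CPM and no overlap. The members of the sets and these lists were chosen with earlier results of these data known. The 22 lists of liver, sex-linked, B cell and other organ genes were added after the values of the present comparison were seen. Some results are not reported here.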

Additional observations from a re-analysis of the deposited data

Results flagged for a closer look

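Of 29 values examined over the 6 CD49f+CD34+ libraries, 4 had 1 library far from the other 5 by Dixon's test at 95%, and all 4 were in the library labelled tdT+ replicate 2. Chance flags about 1 in 20 values of a single group, a rate that does not carry over to libraries already divided on the same values or for lists with related genes. *Xist* was at 1317 CPM there. The summed endothelial list was at 1664 CPM, and the summed list of Langerhans cell and MHC class II genes at 840.5 CPM. The summed adipocyte list was at 122 CPM, mostly from *Fabp4*, which capillary endothelium also expresses. The part of other cells in these values was not tested.

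The row outside the Ensembl genes, which no comparison used, stood above the tdTneg libraries in tdT+ replicate 1 (133 CPM without TMM scaling) and in tdT+ replicate 3 (252 CPM), but not in tdT+ replicate 2.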

How the results depend on the processing

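The alternatives were run for 14 single genes, which kept their direction, and 202 of their values moved by less than the replicate spread and 7 by more, these under the replicate block. Over all 20307 genes, 1004 changed sign with RLE scaling, among them 3 cell cycle and 6 ribosomal protein genes. With at least 10 counts in every library, 696 genes were higher in set A and 50 in set B, and with at least 1 count 278 were higher in set B. Among genes at 10 CPM or more in every set B library the counts were 124 and 14, and within tdT status 378 were higher in set B. Leaving out 1 library gave 2612 to 3233 in set A and 252 to 434 in set B. Fewer libraries make non-overlap easier to meet. The count for set B was 368 without tdT+ replicate 2, 347 without tdTneg replicate 1, 434 without tdTneg replicate 2 and 307 without tdTneg replicate 3.

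The gap between the sets on the first component was 70.9% of the range of scores. It was 59.8% with at least 10 counts, 62.6% with at least 1 count, 61.8% with a prior count of 0.5, 61.2% without the liver lists, and 48.3% among genes at 10 CPM or more in set B. It was 83.1% for the 2000 most variable genes, 39.0% with unit variance, 41.9% centred within tdT status, 79.1% for protein coding genes, and 64.8% to 77.8% leaving out 1 library. The difference between tdT labels, 29.2% of the range, was 10% to 64.5% leaving out 1 library.

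For tdT in CD49f+CD34+ cells (2 genes), DESeq2 called 332, RLE scaling 5, at least 10 counts 22 and at least 1 count 166. The 6 libraries alone gave 0 (1444 genes at an unadjusted p under 0.05), the set term 1, and the fit without the 3 set A libraries 34. The last 2 counts are descriptions, since the sets were read from these values. Leaving out 1 library gave 0 to 5: none without tdT+ replicate 2 or tdTneg replicate 3, 1 without tdTneg replicate 1 and 5 without tdTneg replicate 2. For tdT in SCA-1+ cells (885 genes), DESeq2 called 1395, at least 1 count 1588, all 11 libraries 470, and leaving out 1 library 475 to 835, lowest without tdTneg SCA-1+ replicate 2. The cause of these changes was not tested.

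Same-numbered tdT+ and tdTneg libraries correlated at -0.42, 0.32 and 0.59 after centring. The sign followed the sets: every pair from unlike sets was negative and every pair within a set positive. These values therefore cannot show whether same-numbered libraries share mice, and the main fits did not take the numbers as pairs. With a replicate block 4 genes were called for tdT. For the sets the block left only replicate 1, with 1 library a side, and gave 4227 and 1706 genes.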

Other observations

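Among 9055 genes at 10 CPM or more in every set B library, 124 were higher in set A. Several were not specific to liver and were singled out after their values were seen. *Gm10800*, annotated in a repeat-rich region and uncertain for that reason, had 27146, 12561 and 13339 CPM in set A and 415, 32.2 and 55.4 CPM in set B. *Rn7sk*, the small nuclear RNA that restrains transcription elongation, had 1882, 893 and 1063 CPM in set A and 176, 19.98 and 137 CPM in set B. *mt-Rnr2*, the large mitochondrial ribosomal RNA, had 20538, 11120 and 11250 CPM in set A and 4992, 1873 and 2417 CPM in set B. In all 3 cases tdT+ replicate 1 was highest in set A, and tdT+ replicate 3 was highest in set B, as for *Alb*.

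By gene class, 251 of 1176 genes of biotype TEC, which the annotation holds as awaiting experiment, were higher in set A and 14 in set B, with a median log2 difference of 0.78, beside 12.2% and 0.901% of all genes. Of 984 antisense genes the counts were 138 and 24, in set A near the share over all genes. Of 333 zinc finger genes 6 and 1 were called, with 261 below 0 (median -0.24) beside 10289 of all 20307 genes. None of 80 nuclear respiratory chain genes was called (median 0.00).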
